A study of Homo sapiens with 9 samples.

Results

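The genes described here belong to signalling from the interleukin-7 receptor (IL7R) and related cytokine receptors through JAK and STAT5, and to its feedback. They are 10 of the 62700 annotated genes, chosen by GENCODE release 44 symbol. The receptor chain is IL7R, and the transcription factors are STAT5A and STAT5B. JAK2 is a kinase that several cytokine receptors use, among them CRLF2, while the kinase that binds IL7R itself is JAK1. PIM1 is a kinase gene that STAT5 is known to switch on. CISH, SOCS1, SOCS2 and SOCS3 encode feedback inhibitors, and SOCS2-AS1 is a long noncoding RNA read from the strand opposite SOCS2. Members were picked after SOCS2-AS1 had been seen to rise in the knockout libraries, so its level against the control is given below as a description, with no test.

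RNA was sequenced in 9 libraries of HAL-01, a B cell acute lymphoblastic leukemia line with the t(17;19) translocation, from which the fusion protein TCF3::HLF is made. All cells of all groups, the control included, stably expressed Cas9GFP and were collected on day 13. In the MEF2C enhancer KO groups, sgRNA_96 and sgRNA_97, a guide RNA was directed at the HLF motif of an enhancer that TCF3::HLF binds at MEF2C, while SCR1 received a scrambled guide. Each group had 3 libraries with the replicate numbers 1, 3 and 4. The groups come from a single cell line, the guides were delivered by lentivirus with a red fluorescent reporter, and whether unedited cells were removed was not given in the sources used here.

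Cytokine receptors of this family lack kinase activity of their own. When a ligand joins the receptor chains, JAK kinases bound to them phosphorylate the receptor and then STAT5, which enters the nucleus and activates genes. Among these are CISH, the SOCS genes and PIM1, and the CISH and SOCS proteins bind receptors or kinases and recruit a ubiquitin ligase, which closes a negative feedback loop. In B cell precursors the IL-7 receptor supports survival and growth, and kinase-driven signalling through it or through its partner CRLF2 is a known feature of some B-ALL.

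The study's oligonucleotide table lists the guides E.1 and E.2 for this enhancer, and they are shown because they define what was altered in the KO libraries. Capitals mark the HLF motif (TTACNTAA), which both guides span.
E.1: tagcaTTACATAAtacatgt
E.2: ttagcaTTACATAAtacatg
Each of the 20-base guides had 1 exact match in hg38, on the minus strand at chr5:88825103-88825122 for E.1 and chr5:88825104-88825123 for E.2, inside the MEF2C gene. The positions targeted by the guides share 19 bases. The labels do not say which of them is sgRNA_96 and which sgRNA_97.

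Library totals lay between 15212462 and 29777361 estimated counts, with the deepest being SCR1 replicate 1. Levels are given as CPM, counts scaled to the TMM-adjusted library size, within a gene and as TPM, which also corrects for transcript length, between genes. MEF2C was at 552 ± 13.4 CPM in SCR1 (SD, n = 3) and 509 ± 22.1 CPM in the KO libraries (SD, n = 6). The study, which used DESeq2, reported MEF2C as down-regulated in its day 13 RNA sequencing. It also reported lower MEF2C after enhancer KO by RT-qPCR of RNA and by Western blot of protein. Here 5 of the 6 KO libraries lay below every control library. The difference of -0.12 on the log2 scale missed the threshold in edgeR's quasi-likelihood test (adjusted p = 0.0620). All adjusted p-values below come from this test with Benjamini-Hochberg adjustment over 14436 genes unless another tool is named. The labelled cell type was checked on marker genes. Of 8 B precursor markers tested, 2 (MME and DNTT) were called higher in the KO libraries, as were 2 of 3 myeloid markers tested (MPO and CD33), and the 1 T cell marker tested (TRAC) was called lower, where 20.7% of all genes tested were called. The B precursor markers summed to 3902 to 3997 CPM in SCR1 and 4329 to 4640 CPM in the KO libraries. Myeloid markers summed to 25.3 to 27.1 and 27.3 to 34.4 CPM, and T cell markers to 52.5 to 54.4 and 41.0 to 50.3 CPM, with 4 of the 5 T cell genes under 1 CPM everywhere and CD3D, CD3E and CD3G at 0. Stromal markers summed to 19.6 to 24.1 and 17.4 to 20.9 CPM, and erythroid markers to at most 0.456 CPM. The part of these sums in the results below was not tested. In bulk RNA, fewer cells of a type and less RNA per cell cannot be told apart.

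Per length, the pathway in the control cells was dominated by a single feedback gene and the receptor. SOCS2 was the most abundant member in SCR1 at 281 ± 8.06 TPM (SD, n = 3), above 97.3% of the genes tested. IL7R followed at 151 ± 7.78 TPM. SOCS2-AS1, at 72.2 ± 2.71 TPM, exceeded both STAT factors. STAT5B stood at 64.1 ± 4.60 TPM and STAT5A at 42.5 ± 1.06 TPM, so the 2 STAT5 genes were expressed at a ratio of 0.665 ± 0.0501 (STAT5A over STAT5B). PIM1 at 11.8 ± 1.05 TPM and JAK2 at 3.90 ± 0.637 TPM came next. The remaining feedback genes were scarcely expressed. CISH was at 1.93 ± 0.115 TPM, SOCS1 at 1.24 ± 0.319 TPM and SOCS3 at 0.0798 ± 0.0476 TPM. No neighbours in this order overlapped within SCR1, and the order by mean was the same in the KO libraries. Across all 9 libraries SOCS2-AS1 overlapped STAT5B, and CISH overlapped SOCS1.

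In the KO libraries SOCS2, JAK2 and STAT5A were higher than in SCR1, by 1.38-fold, 1.26-fold and 1.11-fold in mean CPM, while IL7R was at the level of the control. PIM1, CISH and SOCS1 did not pass the test. Of the 10 members, 9 passed the filter on low counts and SOCS3 did not. Leaving out SOCS2-AS1, 3 of 8 members tested were called, all higher, where 10.1% of all genes tested were called higher and 10.6% lower. The members' median absolute log2 fold change was 0.20 without SOCS2-AS1, against 0.15 over all genes tested. KO and SCR1 values in CPM did not overlap for SOCS2, STAT5A and STAT5B, all higher in the KO libraries, where 10.1% of all genes tested did so.

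**Figure D1:**
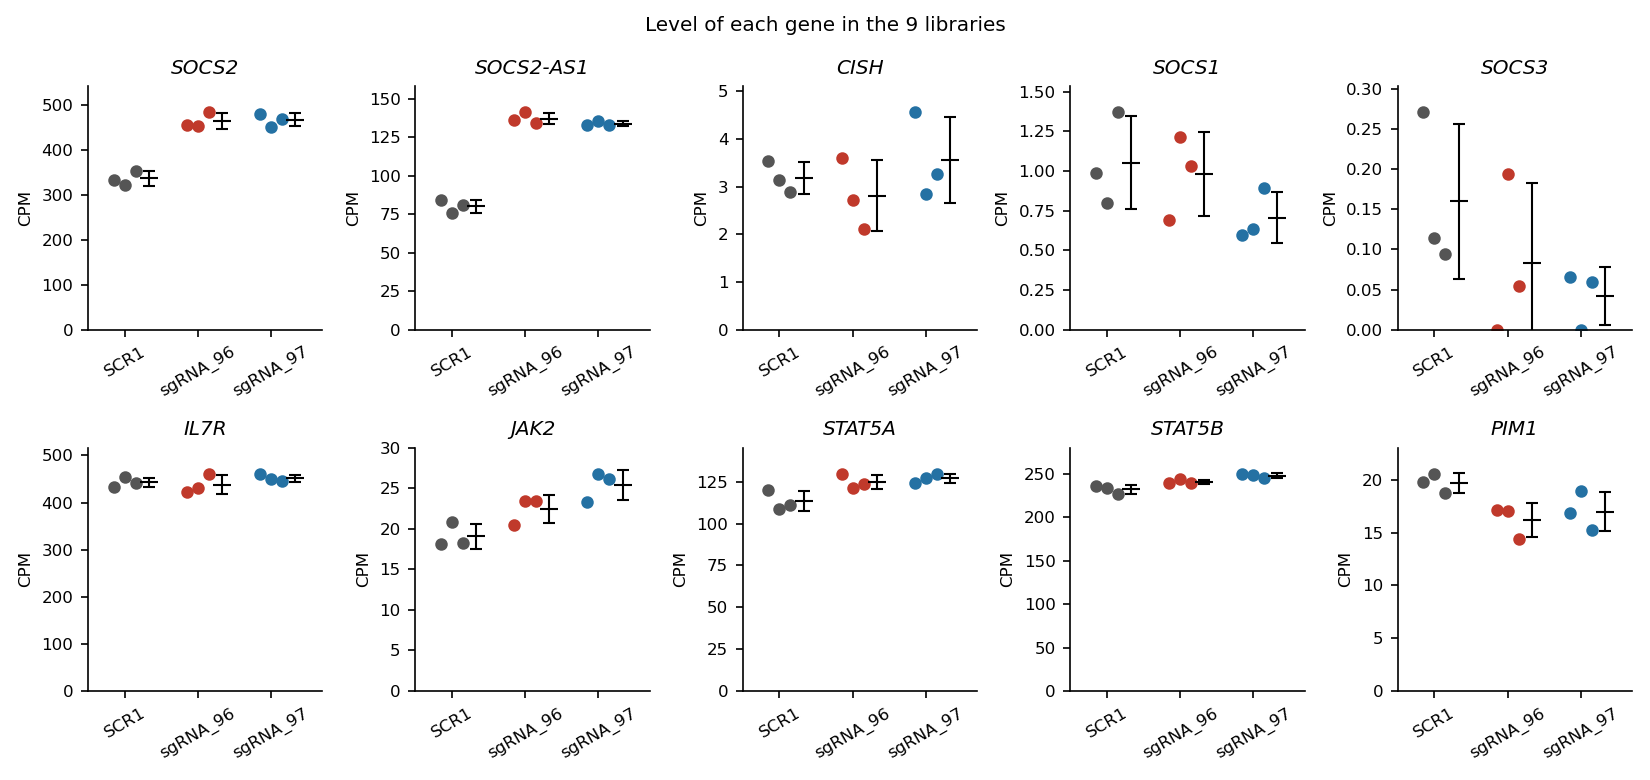
Level of the 10 genes in each library, in CPM on a linear axis from 0, for SCR1 (grey), sgRNA_96 (red) and sgRNA_97 (blue); points are libraries and the black marks give mean ± SD (n = 3), with the bar of SOCS3 ending at 0. All 6 KO points of SOCS2 lie between 452 and 484 CPM, above the 322 to 354 CPM of the control, while the IL7R points of the groups overlap.

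IL7R encodes the chain that binds IL-7 and, together with CRLF2, TSLP. It was at 434, 453 and 442 CPM in SCR1 replicates 1, 3 and 4. With sgRNA_96 it was at 423, 431 and 462 CPM, and with sgRNA_97 at 460, 450 and 446 CPM. The groups overlapped throughout. The KO libraries differed by 0.01 on the log2 scale, with a 95% interval from -0.08 to 0.09 and an adjusted p of 0.931. At this depth the interval therefore holds changes of IL7R in either direction only below 0.10 on the log2 scale. The main coding transcript, IL7R-201, carried 82.7 ± 1.54% of the gene's TPM in SCR1 (SD, n = 3) and 81.6 ± 2.34% in the KO libraries (SD, n = 6).

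JAK2 is a tyrosine kinase that several cytokine receptors use, CRLF2 among them. Its levels in SCR1 were 18.1, 20.8 and 18.2 CPM. They were 20.5, 23.4 and 23.4 CPM with sgRNA_96 and 23.3, 26.8 and 26.1 CPM with sgRNA_97. All KO libraries but sgRNA_96 replicate 1 lay above every control library. JAK2 rose by 0.33 on the log2 scale (SE 0.09, adjusted p = 0.0132). By guide it was 0.24 with sgRNA_96, with an adjusted p of 0.108, and 0.42 with sgRNA_97, with an adjusted p of 0.00769. The guides themselves differed by 0.18 on the log2 scale, with a 95% interval from -0.02 to 0.38, which was not called. The JAK2 call in the KO comparison was lost in 5 of 17 alternatives. Among these were leaving out SCR1 replicate 1 (adjusted p = 0.0869) or SCR1 replicate 4 (adjusted p = 0.0660) and a transcript length offset (adjusted p = 0.102). The others were limma on log2(TPM + 1) (adjusted p = 0.180) and on log2(TPM + 0.1) (adjusted p = 0.187). With sgRNA_97 alone the call was lost in 3 of 17 alternatives, with an adjusted p of up to 0.238. Among these were the length offset (adjusted p = 0.121) and limma on log2(TPM + 1) (adjusted p = 0.221).

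STAT5A and STAT5B are closely related transcription factors encoded side by side on chromosome 17, on opposite strands, and reads that match both were divided between them by Salmon. STAT5A was at 120, 109 and 111 CPM in SCR1. It was at 129, 121 and 124 CPM with sgRNA_96 and at 124, 127 and 130 CPM with sgRNA_97, so that every KO library was above every control library by a narrow margin. STAT5A rose by 0.15 on the log2 scale (SE 0.05, adjusted p = 0.0288). With the guides taken apart STAT5A was not called, at log2 fold changes of 0.14 and 0.16 and adjusted p-values of 0.123 and 0.0568 for sgRNA_96 and sgRNA_97. With sgRNA_97 it was called by DESeq2 (adjusted p = 0.0395) and without sgRNA_96 replicate 1 (adjusted p = 0.0467). The KO call was lost in 7 of 17 alternatives, among them leaving out SCR1 replicate 3 (adjusted p = 0.141), SCR1 replicate 4 (adjusted p = 0.130) or sgRNA_97 replicate 4 (adjusted p = 0.0526), and limma on log2(TPM + 1) (adjusted p = 0.115).

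STAT5B was at 236, 234 and 227 CPM in SCR1, at 239, 243 and 239 CPM with sgRNA_96 and at 250.04, 248 and 245 CPM with sgRNA_97. In CPM the KO values again lay above the control values without overlap. In TPM they overlapped, with 59.6 to 68.8 in SCR1 and 63.5 to 74.1 in the KO libraries. On the log2 scale the difference was 0.07, with a 95% interval from -0.01 to 0.15, and it was not called (adjusted p = 0.192). The gene bodies of STAT5A (chr17:42287547-42311943, plus strand) and STAT5B (chr17:42199176-42288633, minus strand) overlap by 1087 bases, with 415 exonic bases in common, and whether counting used the strand was not stated. The 5 STAT5A transcripts without a shared exonic base, which held 11.7% of its TPM in SCR1, were at 4.50 to 5.23 TPM in SCR1 and 5.35 to 9.47 TPM in the KO libraries.

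PIM1 encodes a serine/threonine kinase that promotes survival. Its level was 19.8, 20.6 and 18.8 CPM in SCR1. With sgRNA_96 it was 17.1, 17.1 and 14.4 CPM, and with sgRNA_97 it was 16.8, 18.9 and 15.2 CPM. In 5 of the 6 KO libraries PIM1 lay below every control library, and sgRNA_97 replicate 3 overlapped the control. Its log2 fold change of -0.25 (SE 0.09) was not called (adjusted p = 0.0556). DESeq2 gave the same log2 fold change with an adjusted p of 0.0498, and over all 17 alternatives it lay between 0.0286 and 0.274. PIM1 was called without sgRNA_96 replicate 1 (adjusted p = 0.0495) or sgRNA_97 replicate 3 (adjusted p = 0.0286).

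CISH is the member whose RefSeq promoter window held matches to the STAT5 motif TTCNNNGAA, a palindrome that reads the same on both strands. Its stretch from 250 to 95 bases before the start site (chr3:50611869-50612024, GRCh38.p14, minus strand) is shown with the 4 matches in capitals, because it is the part of the members' windows that holds the motif of the pathway's own factor.
CISH: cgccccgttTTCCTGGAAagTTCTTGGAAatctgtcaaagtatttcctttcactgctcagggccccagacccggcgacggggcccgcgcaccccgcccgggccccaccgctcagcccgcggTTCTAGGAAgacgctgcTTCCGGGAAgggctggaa
Of 35116 promoter windows of 300 bases, from 250 before to 50 after a start, 7.66% held at least 1 match and 0.0199% held 4 or more. Windows were found for 8 of the 10 members, 14 in all. Outside CISH, none of these held TTCNNNGAA. For SOCS3, IL7R and STAT5B the windows did not cover the outermost start of the gene in GENCODE, and the sequence there was not searched. None of the 14 held the HLF motif TTACNTAA (2.18% of all windows). None held CTA and TAG with any 4 bases between, the form searched for MEF2 (2.73%). Both were searched on both strands, and other forms of the MEF2 motif were not searched.

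The CISH level did not differ detectably. It was 3.53, 3.14 and 2.88 CPM in SCR1, 3.59, 2.72 and 2.12 CPM with sgRNA_96 and 4.57, 2.84 and 3.27 CPM with sgRNA_97, with KO libraries on either side of the control. CISH differed by -0.01 on the log2 scale, with a 95% interval from -0.47 to 0.45 and an adjusted p of 0.976. A change of CISH by up to about those bounds could therefore not be seen at its low level. Its gene body overlaps MAPKAPK3 on the other strand.

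SOCS1, which binds JAK kinases directly, was lower still. It was at 0.984, 0.798 and 1.37 CPM in SCR1, at 0.694, 1.22 and 1.03 CPM with sgRNA_96 and at 0.596, 0.632 and 0.891 CPM with sgRNA_97. The groups overlapped. For SOCS1 the log2 fold change was -0.31, with a 95% interval from -1.01 to 0.39 and an adjusted p of 0.557. SOCS1 overlaps RMI2 on the other strand.

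SOCS3, an inhibitor of receptors that use gp130, had 8, 2 and 2 estimated counts in SCR1, 0, 4 and 1 with sgRNA_96 and 1, 0 and 1 with sgRNA_97. It did not pass the filter on low counts and was not tested. A count of 0 allows up to 3 counts, which is 0.102 to 0.199 CPM depending on the library and covers counting error only.

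SOCS2, which acts on growth hormone and other receptors, gave the clearest difference among the members that were tested. Its levels were 334, 322 and 354 CPM in SCR1. They were 456, 454 and 484 CPM with sgRNA_96 and 481, 452 and 470 CPM with sgRNA_97. The lowest KO library stood well above the highest control library. SOCS2 rose by 0.47 on the log2 scale (SE 0.04, adjusted p = 2.39e-06). By guide it was 0.46 with sgRNA_96 and 0.47 with sgRNA_97, both called, and the difference between the guides was 0.01 with a 95% interval from -0.10 to 0.12. SOCS2 was called in all 17 alternatives of the KO comparison, with a log2 fold change from 0.43 to 0.51 and an adjusted p of at most 0.00748.

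SOCS2-AS1, whose rise chose the members, was at 83.9, 75.5 and 81.0 CPM in SCR1. It was at 136, 141 and 134 CPM with sgRNA_96 and at 133, 136 and 133 CPM with sgRNA_97. The KO libraries spread over 132.6 to 141.3 CPM and left a wide gap to the control. The mean CPM was 1.69-fold that of SCR1, a log2 fold change of 0.75. In TPM the mean was 1.57-fold. The log2 fold change was 0.64 with the length offset and with limma on log2(TPM + 1). The guides, a comparison that did not choose it, differed by -0.04 (95% interval -0.15 to 0.08), which was not called. Per length, the antisense RNA stood at 0.257 ± 0.0130 of SOCS2 in SCR1 (ratio of TPM, SD, n = 3) and at 0.293 ± 0.0149 in the KO libraries (SD, n = 6), with overlapping values.

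**Figure D2:**
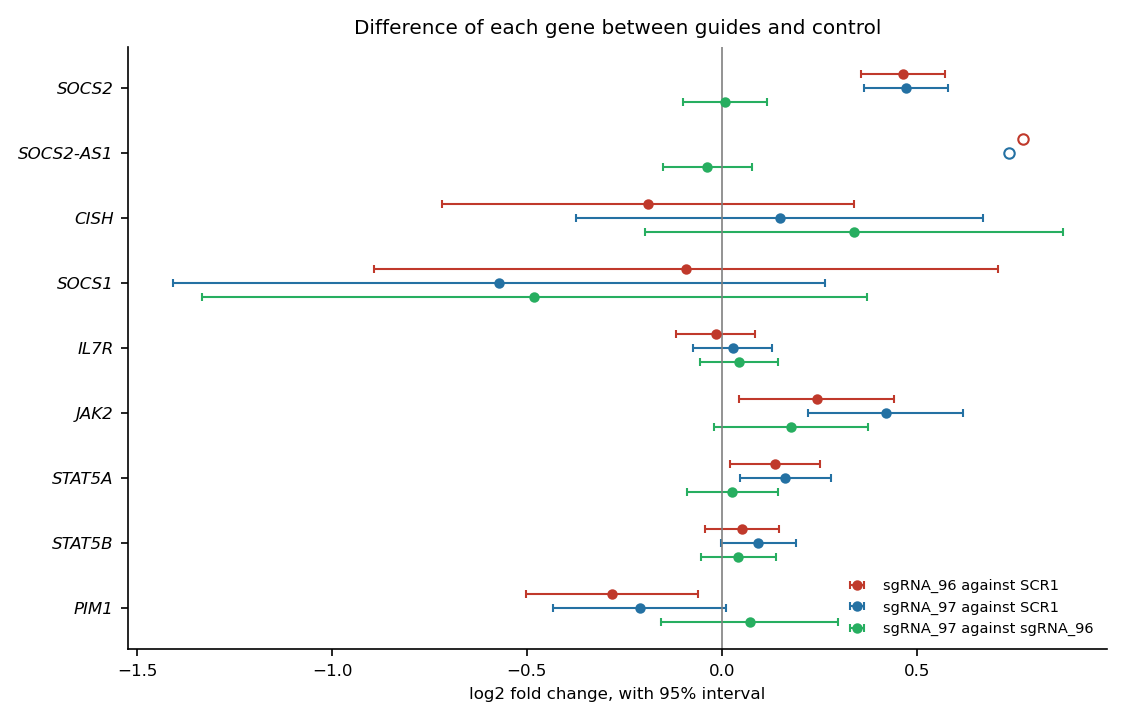
Log2 fold change of the 9 genes that passed the filter on low counts, for sgRNA_96 against SCR1 (red), sgRNA_97 against SCR1 (blue) and sgRNA_97 against sgRNA_96 (green), with 95% intervals from edgeR; open points of SOCS2-AS1 are values with no interval. SOCS2 lies at 0.46 and 0.47 with the guides, and the intervals of CISH and SOCS1 are the widest.

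SOCS2 (chr12:93569814-93583487, plus strand) and SOCS2-AS1 (chr12:93542022-93571768, minus strand, hg38) overlap by 1955 bases, and their exons share 277 bases, 4.28% of the exonic length of SOCS2. Reads there cannot be told apart by gene if counting ignored the strand, which was not stated. The 8 of 12 SOCS2 transcripts that share no exonic base with SOCS2-AS1 held 89.4% of its TPM in SCR1. Their summed level was 245, 256 and 253 TPM in SCR1 and 320.4 to 383 TPM in the KO libraries, 1.39-fold higher in the mean and without overlap. The 3 of 6 SOCS2-AS1 transcripts with no shared exonic base were at 31.2 to 40.8 TPM in SCR1 and 35.2 to 61.8 TPM in the KO libraries, 1.39-fold in the mean and overlapping. The 3 that do share bases were at 28.5 to 41.2 TPM and 55.8 to 69.3 TPM, 1.75-fold in the mean. SOCS2-AS1 thus was higher in both sets by mean, with a clear gap only in the set that reaches into SOCS2.

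**Figure D3:**
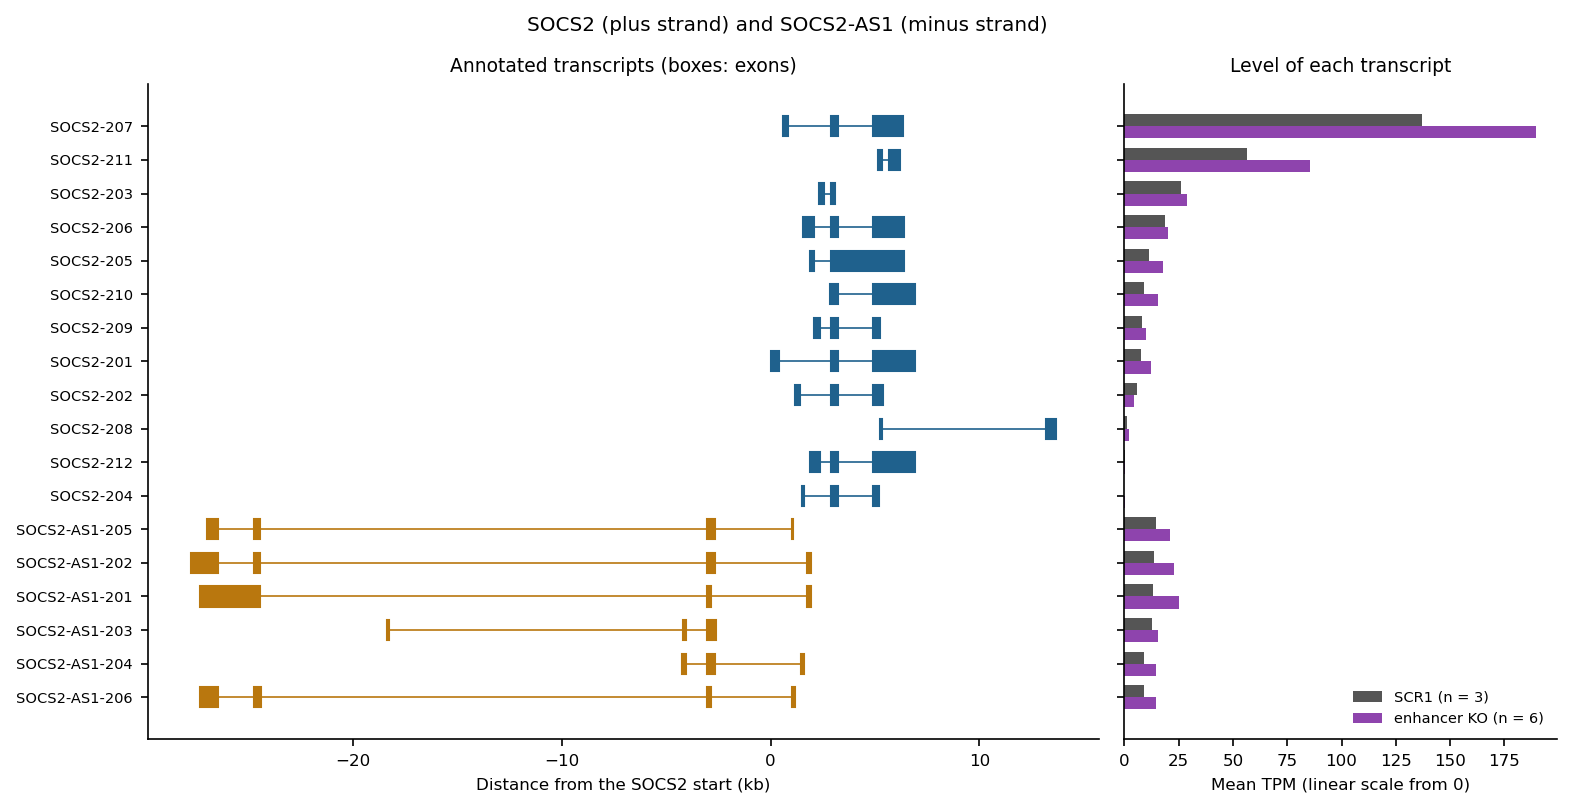
Annotated transcripts of SOCS2 (blue) and SOCS2-AS1 (ochre), with exons as boxes against the distance from the SOCS2 start in kb, and beside them the mean TPM of each transcript in SCR1 (grey, n = 3) and the KO libraries (purple, n = 6). SOCS2-207 has the longest bars, 137 TPM in SCR1 and 190 TPM in the KO libraries, and every SOCS2-AS1 transcript has a longer KO bar.

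A pair of SOCS2 transcripts, SOCS2-207 and SOCS2-211, carried most of the gene. SOCS2-207 held 48.8 ± 2.35% of the TPM in SCR1 and 49.1 ± 2.31% in the KO libraries, at 134 to 142 and 175 to 206 TPM. SOCS2-211 held 20.1 ± 1.83% and 22.0 ± 2.78%. Of 12 transcript shares tested in 6 member genes, no share had an adjusted p under 0.05 or an unadjusted p under 0.05 in an exact two-sided permutation test, whose smallest possible p was 0.0119. With 12 shares, a single shifted share at that smallest p would still have missed the adjusted threshold. The shares of SOCS2-207 and SOCS2-211 were close to those of the control. Other SOCS2 transcripts were not tested, and SOCS2-203 held 9.33 ± 0.889% in SCR1 and 7.46 ± 0.775% in the KO libraries.

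Within 500000 bases of SOCS2, 5 genes other than SOCS2-AS1 were tested of 23 annotated. CRADD, a death-domain adaptor gene that starts 93888 bases past the end of SOCS2, rose by 0.38 on the log2 scale (adjusted p = 0.00950). NUDT4, UBE2N, MRPL42 and the processed pseudogene ENSG00000186076 were not called, with adjusted p-values of 0.0936, 0.384, 0.957 and 0.267. One call in 5 is close to the 20.7% of all genes tested that were called in either direction.

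The genes whose log2 CPM followed SOCS2-AS1 most closely over the 9 libraries, out of 12960 with a mean of at least 1 CPM, were CRLF2 (Pearson r = 0.994), SH3BP5 (0.992), GIMAP4 (0.992), LINC01013 (0.989) and THEMIS2 (0.989). SOCS2 ranked 36th with r = 0.972. Because the groups differ, these values mostly describe the step from SCR1 to KO. Once each library was set against its group mean, the correlations with SOCS2-AS1 were 0.604 for CRLF2, 0.282 for SH3BP5, 0.478 for GIMAP4, 0.633 for LINC01013, 0.726 for THEMIS2 and 0.0708 for SOCS2. CRLF2, the receptor chain that pairs with IL7R to bind TSLP, is also a gene of the wider pathway.

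The wider pathway was followed through 78 other genes of receptors, ligands, kinases, STAT factors, inhibitors and targets, of which 55 were tested. Of these, 12 were called in the KO libraries, 7 higher and 5 lower. That is 21.8%, near the 20.7% over all genes tested, and without SCR1 replicate 1 the count was 7. The median log2 fold change of the 55 was 0.04, against 0.00 over all genes tested.

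**Figure D4:**
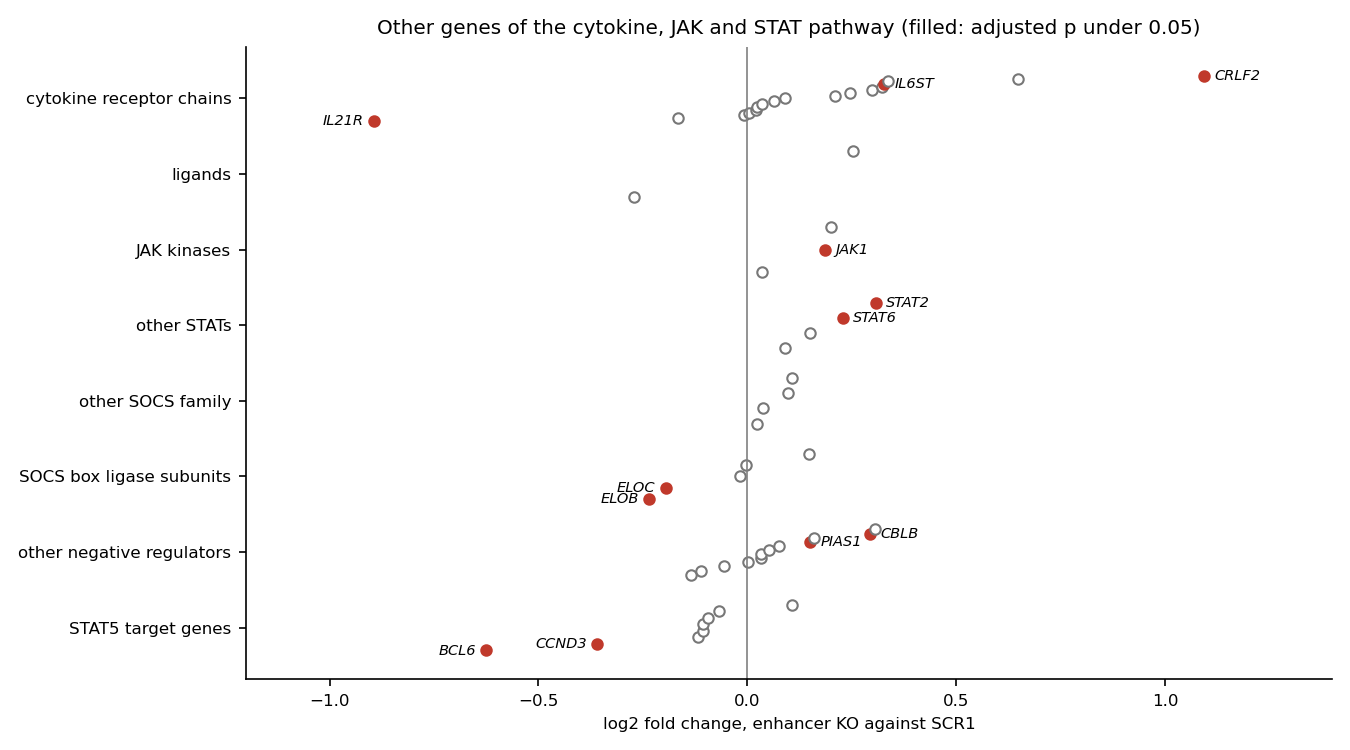
Log2 fold change of the 55 other pathway genes tested, enhancer KO (n = 6) against SCR1 (n = 3), by role; filled red points have an adjusted p under 0.05 in edgeR and are named. CRLF2 lies furthest to the right at 1.09, and IL21R and BCL6 furthest to the left at -0.89 and -0.62.

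Among the receptor chains, 3 of 17 tested were called. CRLF2 (chrX:1190490-1212723, minus strand) was at 2.38, 2.17 and 2.46 CPM in SCR1. It was at 4.85, 5.16 and 5.21 CPM with sgRNA_96 and at 4.77, 5.26 and 4.69 CPM with sgRNA_97, about 2.14-fold the control mean and without overlap. CRLF2 rose by 1.09 on the log2 scale (SE 0.15, adjusted p = 1.40e-04), and it was called in all 17 alternatives. The gene is annotated on both sex chromosomes with the same sequence, and all of its counts were assigned to the X entry. IL6ST, which encodes gp130, rose by 0.33 on the log2 scale (adjusted p = 0.00340), with 34.4 to 37.3 CPM in SCR1 and 39.8 to 49.1 CPM in the KO libraries. Its call was lost with limma on log2(TPM + 1) and on log2(TPM + 0.1) (adjusted p = 0.0739 and 0.0799). IL21R dropped by 0.89 on the log2 scale (adjusted p = 0.0150), from a mean of 3.38 to 1.81 CPM, and was not called without SCR1 replicate 1 (adjusted p = 0.0502) or SCR1 replicate 3 (adjusted p = 0.0759).

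The common gamma chain IL2RG, with which IL7R forms the IL-7 receptor, had at most 2 counts in any library. IL2RA and IL2RB had at most 3 and 4 counts. The ligands IL7 and TSLP were at 0 counts in all 9 libraries. Of the chains known to pair with IL7R, CRLF2 was therefore measured at a low level and IL2RG hardly at all. Of the 12 ligand genes listed, 2 were tested, LIF and FLT3LG, and no ligand was called by edgeR, DESeq2 or limma or had an unadjusted p under 0.05.

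JAK1, the kinase that binds IL7R, rose by 0.19 on the log2 scale, with an adjusted p of 0.00705. Its values were 151 to 161 CPM in SCR1 and 171 to 189 CPM in the KO libraries, without overlap. The JAK1 call was lost in 4 of 17 alternatives. These were leaving out SCR1 replicate 4 (adjusted p = 0.0597), the length offset (adjusted p = 0.0636) and both limma fits (adjusted p of up to 0.163). JAK3 and TYK2 were not called. STAT2 and STAT6, which serve interferon and IL-4 receptors, rose by 0.31 and 0.23 on the log2 scale, with adjusted p-values of 0.00241 and 0.00312. The STAT2 call was lost in both limma fits (adjusted p = 0.0554 and 0.0649), while STAT6 kept its call in all 17 alternatives. STAT3, at a log2 fold change of 0.15, was not called by edgeR (adjusted p = 0.0562) but was by DESeq2 (adjusted p = 0.0384).

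Among 8 tested genes known as STAT5 targets, 2 were called, both lower, which is 25.0% against 20.7% over all genes tested. BCL6, a repressor that STAT5 is known to hold down in B cell precursors, was at 41.6, 44.6 and 39.8 CPM in SCR1. It was at 27.2, 27.5 and 24.9 CPM with sgRNA_96 and at 26.6, 28.3 and 28.6 CPM with sgRNA_97. It dropped by 0.62 on the log2 scale (SE 0.06, adjusted p = 5.77e-06). CCND3, a D-type cyclin needed for growth of B cell precursors, dropped by 0.36 on the log2 scale (adjusted p = 1.39e-04), with 701 to 709 CPM in SCR1 and 482 to 582 CPM in the KO libraries. Neither BCL6 nor CCND3 overlapped between the groups, and both were called in all 17 alternatives. BCL2, BCL2L1, MCL1, MYC, PIM2 and PIM3 were not called by edgeR, with log2 fold changes between -0.12 and 0.11. DESeq2 called BCL2 (adjusted p = 0.0415).

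Of the other SOCS family genes SOCS4, SOCS5, SOCS6 and SOCS7, no gene was called by edgeR, DESeq2 or limma or had an unadjusted p under 0.05, and their log2 fold changes lay between 0.02 and 0.11. A call in the SOCS family was thus made for SOCS2 but for no other member, which does not show that SOCS2 differs from them, since differences between the genes were not tested. Elongin B (ELOB) and elongin C (ELOC), the adaptors through which a SOCS box reaches its ubiquitin ligase, fell by 0.24 and 0.19 on the log2 scale with adjusted p-values of 0.0466 and 0.0154. ELOB values overlapped between the groups, and its call was lost in 12 of 17 alternatives, with an adjusted p of up to 0.267 without SCR1 replicate 1. The ELOC call was lost without SCR1 replicate 1 (adjusted p = 0.0562) or SCR1 replicate 4 (adjusted p = 0.104), and in both limma fits (adjusted p = 0.0534 and 0.0545). Among 12 other negative regulators, CBLB, a ubiquitin ligase, rose by 0.29 (adjusted p = 0.0209) and PIAS1, a STAT inhibitor, by 0.15 (adjusted p = 0.0327) on the log2 scale. Without SCR1 replicate 1 neither was called (adjusted p = 0.150 and 0.179), and the PIAS1 call was also lost without SCR1 replicate 4, sgRNA_96 replicates 3 or 4 or sgRNA_97 replicate 1 (adjusted p from 0.0519 to 0.124). Both genes also lost their calls in the limma fits and with the length offset, with an adjusted p of up to 0.270 for CBLB and 0.481 for PIAS1. In all, the PIAS1 call was lost in 9 of 17 alternatives. The phosphatase genes PTPN1, PTPN2, PTPN6, PTPN11 and PTPRC were not called.

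Between the guides no member was called in the comparison of sgRNA_97 with sgRNA_96, and none had an unadjusted p under 0.05 in edgeR or was called by DESeq2 or limma. Over all genes 3 were called, 0.0208% of those tested. The 3 were GVINP1, ENSG00000285816 and ENSG00000285920, named here after their values were seen, and none is a gene of the pathway lists. Taken one guide at a time against the shared SCR1 libraries, and leaving out SOCS2-AS1, SOCS2 was the 1 member of 8 called with sgRNA_96, where 11.2% of all genes were called, and SOCS2 and JAK2 were called with sgRNA_97, where 15.1% were.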

How the data were processed

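The authors prepared poly(A)-selected libraries, aligned the reads to hg38 with STAR, quantified transcripts with Salmon 1.10.1 and deposited estimated counts and TPM for 252835 transcripts in 9 libraries. The annotation release and strand setting were not stated, but every transcript identifier was found in GENCODE release 44. For each gene the estimated counts of its transcripts were added up and rounded. Genes were kept by filterByExpr (minimum count 10), scaled by TMM and tested in R 4.3.3 with edgeR 4.0.16 (glmQLFTest), with Benjamini-Hochberg adjustment and a threshold of 0.05. The 6 KO libraries formed 1 group, and a second fit held 3 groups. DESeq2 1.42.0, which the study names, limma 3.58.1 on log2(TPM + 1) and log2(TPM + 0.1), other scalings, no filter, a length offset, a replicate term and each library left out were alternatives. The edgeR step was tested on simulated counts in which 200 of 14436 genes were changed 2-fold. It recovered 80.5% of these, and 11 of its 172 calls were false. Smaller changes, such as those of the members, were not simulated.

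Nothing says that replicates were separate cultures, so p-values measure the spread between these samples. Within groups, replicates were 4.31 to 8.59 times further apart in chi-square than sampling noise alone gives, so none was a resampled copy of another. Repeat libraries from the same RNA or culture cannot be told from separate cultures by this value. Members and lists were chosen with earlier results of these data known. Named were all members, each called gene of the pathway lists, tested neighbours within 500000 bases of SOCS2, and the 5 genes whose pattern was most like that of SOCS2-AS1. Guide sequences are from the study's oligonucleotide table and promoters from RefSeq (GRCh38.p14). SOCS2 and SOCS2-AS1 were not in the promoter table.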

Additional observations from a re-analysis of the deposited data

Results flagged for a closer look

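Of 11 groups of 6 KO libraries checked, 1 for each member and MEF2C, 2 had a library whose gap to the nearest of the others was large for the group's range, where chance flags about 1 in 20. SOCS3 in sgRNA_96 replicate 3 was at 0.195 CPM, which is 4 estimated counts, against 0 to 0.0662 CPM in the other 5 KO libraries. MEF2C in sgRNA_97 replicate 1 was at 553 CPM, against 495 to 510 CPM in the other 5. In that library SOCS2 was at 481 CPM and SOCS2-AS1 at 133 CPM, both within what the 5 others span. Without it SOCS2 kept its call.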

How the results depend on the processing

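SOCS2, BCL6, CCND3, CRLF2 and STAT6 kept direction and call in all 17 alternatives. Calls in the KO comparison numbered 1458 higher and 1526 lower, and 509 and 335 with limma on log2(TPM + 1) or 495 and 287 with log2(TPM + 0.1). In all they numbered 844, 782 and, with the length offset, 1526, against 237, 188 and 661 for sgRNA_96 (1615) and 331, 244 and 925 for sgRNA_97 (2181). Other pathway genes called were 12, and 4, 4 and 7 in these settings. Leaving out 1 library gave 1503 to 3547, 760 to 2027, 987 to 2501 and, for the pathway, 7 to 13 calls, with the lowest counts of the KO comparison without SCR1 replicate 1 (1503) and SCR1 replicate 4 (1813), and for the pathway without SCR1 replicate 1. For sgRNA_97 against sgRNA_96 the count of 3 became 8 with DESeq2, 106 with no filter, 0 with limma on log2(TPM + 1), 1 with the length offset, 1 with the replicate block and 1 to 5 with a library left out. The causes were not tested.

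Values that changed sign were all uncalled. For the KO comparison CISH was 0.000485 with upper quartile scaling and from -0.14 to 0.0818 with a library left out, and IL7R was -0.0031 with no filter and from -0.0110 to 0.0196 with a library left out. SOCS1 with sgRNA_96 ranged from -0.28 to 0.14, IL7R with sgRNA_96 from -0.0538 to 0.00778 and CISH with sgRNA_97 from -0.0665 to 0.29 with a library left out. Between the guides, with limma on log2(TPM + 1), log2(TPM + 0.1) and the length offset, SOCS2 was -0.0445, -0.0446 and -0.0369 and PIM1 -0.0285, -0.0306 and -0.0223. STAT5B was -0.000570 and -0.000614 in the limma fits. With a library left out SOCS2 lay between -0.0109 and 0.0393 and PIM1 between -0.0162 and 0.14.

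Same-numbered libraries did not deviate together from their group means, with correlations from -0.08 to 0.07. Whether the numbers mark libraries made together was not stated, and these values cannot tell. The main fit held no replicate term. With the replicate block 1417 genes were higher and 1519 lower, PIM1 was called (adjusted p = 0.0303) and ELOB was not (adjusted p = 0.0558).

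CISH, SOCS1 and SOCS3 rest on few counts, and depth limits them most. Reads of overlapping genes on opposite strands rest on an unstated strand setting.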
